A study of Homo sapiens with 15 samples.

Results

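The 50 genes described here encode the machinery that copies chromosomal DNA and the regulators that take a cell from G1 into S phase. They were chosen by name, in 7 roles, and every array feature (probe set) annotated to one of them alone was used, which gave 105 of the 54613 non-control probe sets of the array. Of these, 96 passed a filter on dim probe sets that 28897 of the 54613 passed, and each of the 50 genes kept at least 1 tested probe set among the 13607 genes tested. A further 4 probe sets name PRIM2 together with PRIM2BP and were left out. For 18 genes the array holds 1 probe set, and no gene has more than 7. A gene with several is represented by the tested probe set with the highest mean over all arrays.

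Expression was measured in THP-1, a human line from an acute monocytic leukaemia that divides in culture and serves as a model of monocytes. There were 5 groups of 3 arrays: untreated cells at 0 h, cells exposed to infliximab for 6 h or 24 h, and cells exposed to CDP870 for 6 h or 24 h. Infliximab is a chimeric IgG1 antibody against tumour necrosis factor (TNF), and CDP870, later named certolizumab pegol, is an anti-TNF Fab' coupled to polyethylene glycol that lacks an Fc part. No untreated cells were taken at 6 h or 24 h, so a difference from 0 h holds the agent and the time in culture together, whereas the agents can be set against each other at equal times. Doses, and an antibody control of no specificity, are not given in the labels. Biological replication is named in the design text alone, with no word on how cultures were kept apart, and the p-values cover the spread from array to array within a group, which may be technical. All values are log2 probe set summaries whose zero is unknown. They serve to compare one gene between groups and not one gene with another.

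In G1, the origin recognition complex with CDC6 and CDT1 loads the MCM helicase onto origins, a step called licensing. Cyclin D with CDK4 or CDK6, and then cyclin E with CDK2, inactivate the retinoblastoma protein and release E2F factors, which switch on many of the genes for licensing, synthesis and nucleotide supply. At the start of S phase MCM10, CDC45 and the GINS complex turn the loaded helicase into an active one, and polymerases alpha, delta and epsilon copy the strands with the sliding clamp PCNA, its loader RFC and the single-strand binder RPA. In RNA from whole cultures, fewer cells in a phase and less RNA per cell cannot be told apart.

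The arrays were of similar level, with a median of non-control probe sets between 2.93 and 3.07. Of 10 monocyte and THP-1 marker genes 8 have a probe set, and all 8 lay above the array median. They too moved with the agent, with 1 higher at 6 h and 3 at 24 h of infliximab against 0 h (medians 0.24 and 0.41), and 2 and 3 higher than with CDP870 at those times. The median absolute distance of a probe set from the other arrays of its group was 0.205 for untreated replicate 3 and 0.155 to 0.185 for the infliximab 24 h arrays, against 0.095 to 0.15 for the other arrays. The highest of those 3 infliximab arrays was replicate 5, followed by replicate 7 (0.17) and replicate 6. Counts are also given without untreated replicate 3 and infliximab 24 h replicates 5 and 6, which were picked in an earlier look at these data and not by this distance, in a fit that leaves 1 infliximab array at 24 h, which is then assumed to vary like the other groups. The controls for hybridisation (spike-ins, labelled RNAs of fixed amount in each hybridisation mix) read higher on the infliximab 6 h arrays (mean log2 7.75 ± 0.04, SD, n = 3) than on the untreated ones (7.38 ± 0.13). Epithelial markers (EPCAM, CDH1 and 5 keratins, 6 of 7 tested) moved with the agent. Their summed log2 level was 42.28 to 43.19 on the infliximab arrays, 39.46 to 40.92 on the untreated and 36.96 to 38.56 on the CDP870 arrays; all 6 had a mean above the array median, and CDH1 did not pass the filter on dim probe sets. Of the 6, 4 rose at 6 h and 5 at 24 h of infliximab against 0 h. The part of the monocyte and epithelial markers in the results was not tested. The T cell, B cell and fibroblast lists held 3 tested genes each, with summed levels that overlapped between the untreated and infliximab groups, and 1 of these 9 genes (PAX5, lower at 6 h) passed against 0 h.

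Infliximab was accompanied by lower levels of a large part of these genes at both times. Among them were most genes that activate the helicase, several polymerase subunits, and MCM4, CCNE1, SKP2 and CDC25A. When the probe sets of each gene were averaged, the 6 h calls of MCM4, SKP2, CDC25A, GINS2 and POLA2 against 0 h were lost. At 24 h those of MCM4, CDC6, CDC25A and POLA2 were lost. At 6 h 17 of the 50 genes fell against 0 h and none rose (limma, adjusted p under 0.05). Over all tested probe sets 4.4% were called lower and 4.02% higher, 8.42% in all, and of the 13607 genes represented in the same way 5.70% were lower. The median log2 difference was -0.30 over the 50 genes and -0.05 over all genes, and 43 of the 50 lay below 0 against 59.1% of all genes. At 24 h 14 fell and 1, CCND1, rose, where 2.79% of probe sets were called lower, 3.78% higher and 6.57% in all (3.45% of genes were lower). The median at 24 h was -0.20 over the 50 genes and -0.02 over all genes. The 2 comparisons share the untreated arrays, and 12 genes passed as lower in both (70.6% of those at 6 h, 85.7% of those at 24 h). They are CCNE1, CDC25A, CDC45, GINS1, GINS2, GINS3, MCM4, ORC1, POLA2, POLE2, RPA1 and SKP2.

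The number called depended on single arrays. At 6 h, 10 genes were called lower without infliximab replicate 10 and 11 without infliximab replicate 9, while CCNE1, CDC25A, CDC45, GINS1, MCM4, MCM5, POLA2 and SKP2 were called whichever array was left out. At 24 h, 7 were called lower without untreated replicate 2, and CCNE1, GINS3, MCM4, ORC1, POLE2 and SKP2 were called whichever array was left out. All these fits use 1 spread per probe set for all groups. The infliximab 24 h arrays lay farther from their group (median distance 0.155 to 0.185) than the CDP870 arrays (0.095 to 0.15). With the compared arrays alone none of the 14 calls at 24 h was kept, and 13 of the 17 at 6 h were. Without untreated replicate 3 and infliximab 24 h replicates 5 and 6 the counts were 23 at 6 h and 5 at 24 h, where 6% and 1.6% of all probe sets were called lower.

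Array by array, the 50 genes lay lower with infliximab and close to the untreated level with CDP870. The median deviation from the untreated mean was -0.30, -0.22 and -0.32 on infliximab 6 h replicates 8, 9 and 10, and -0.28, -0.15 and -0.22 on infliximab 24 h replicates 5, 6 and 7. On the 6 CDP870 arrays it lay between -0.065 and -0.005. All 6 infliximab arrays were thus below all 6 CDP870 arrays. CDP870 24 h replicates 11 and 12 carried spike-ins at 7.72 and 7.71, as high as the infliximab 6 h arrays (7.71 to 7.78), with medians of -0.005 and -0.02, and infliximab 24 h replicate 5 carried 7.34 with a median of -0.28. With the spike-in level as a covariate none of the 17 calls at 6 h was kept and 11 of the 14 at 24 h were. In that fit all 17 differences stayed below 0, the median over the 50 genes at 6 h was -0.29, the median standard error was 0.15 in place of 0.11, and 0.138% of all probe sets were called lower at 6 h. Among the 17, GINS2 moved to -0.21 and POLE to -0.42, and SKP2 to -0.69. The untreated arrays carried spike-ins at 7.23 to 7.46, all below the infliximab 6 h arrays, so group and spike-in level go together in that comparison. The part of the spike-in level in the differences was not tested.

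**Figure D1:**
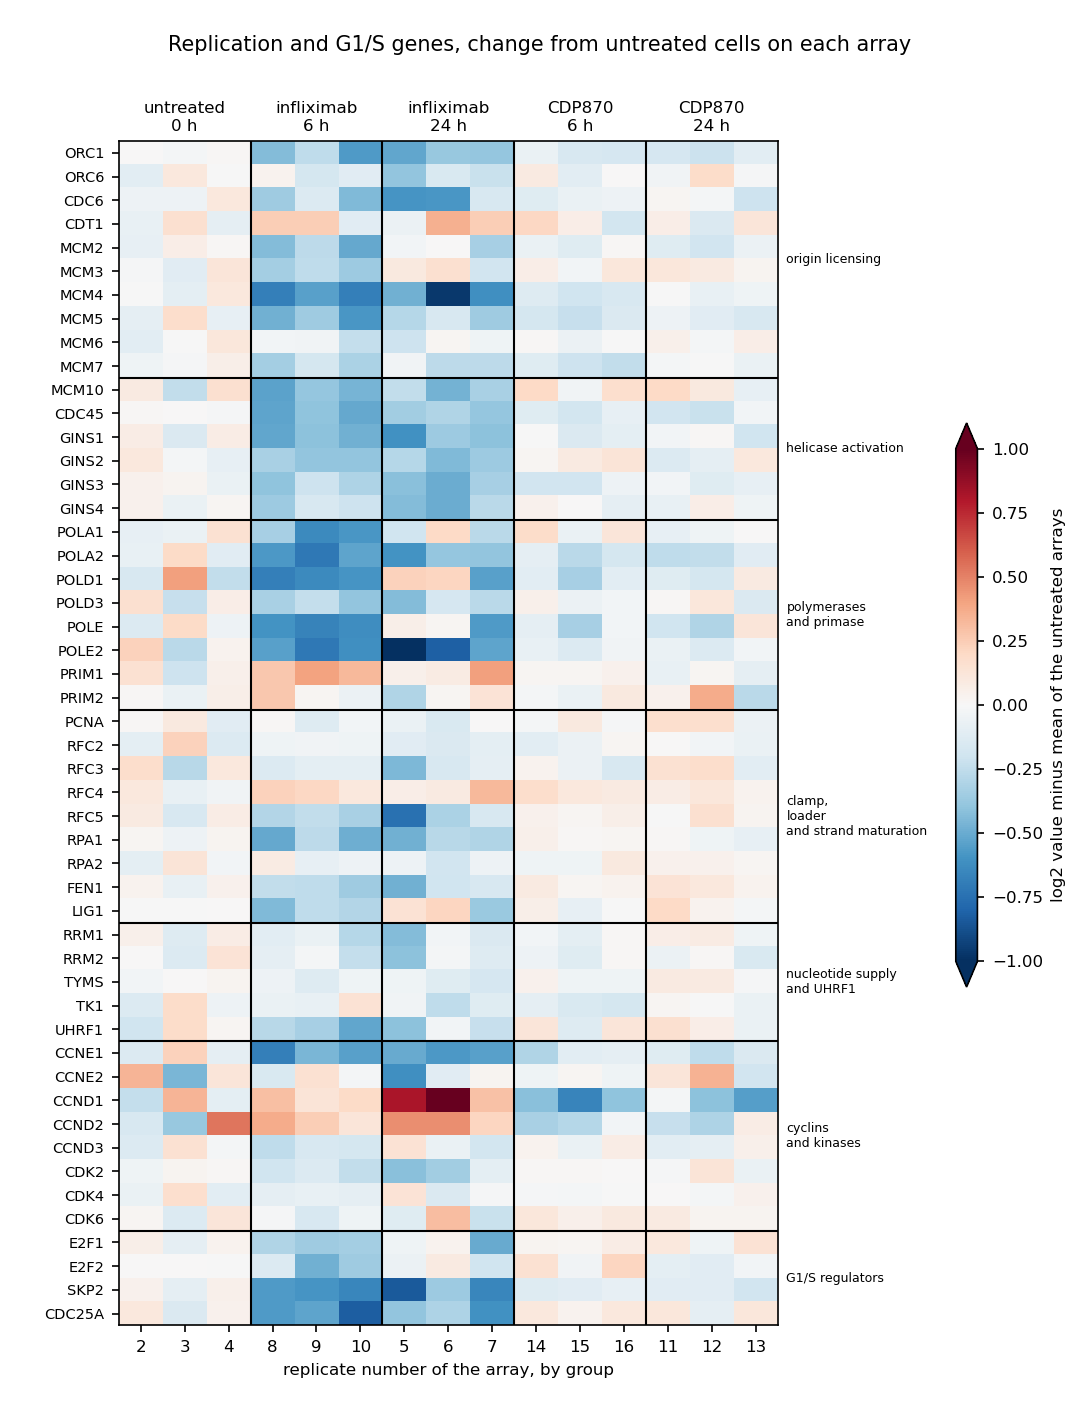
Log2 value minus the mean of the 3 untreated arrays for each of the 50 genes (rows, grouped by role) on each of the 15 arrays (columns, grouped by treatment and labelled by replicate number); blue is lower and red higher, and the colour scale ends at 1 in each direction. The rows of helicase activation are blue on every infliximab array, CCND1 is red at 24 h of infliximab, and the CDP870 columns are pale apart from CCND1 and a few single arrays.

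CDP870 gave no call among these genes. At 6 h 0 of 50 genes passed in either direction (limma, 2 of 50 with an unadjusted p under 0.05), and at 24 h 0 of 50 (0 with an unadjusted p under 0.05), where 0% of all tested probe sets passed in both comparisons. The medians were -0.01 at 6 h and -0.03 at 24 h, against -0.01 and -0.04 over all genes, and the differences ran from -0.49 to 0.12 and from -0.33 to 0.09. The lowest value was CCND1 at both times. A difference that did not pass does not show that CDP870 left a gene unchanged, since the standard errors ran from 0.08 to 0.20.

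**Figure D2:**
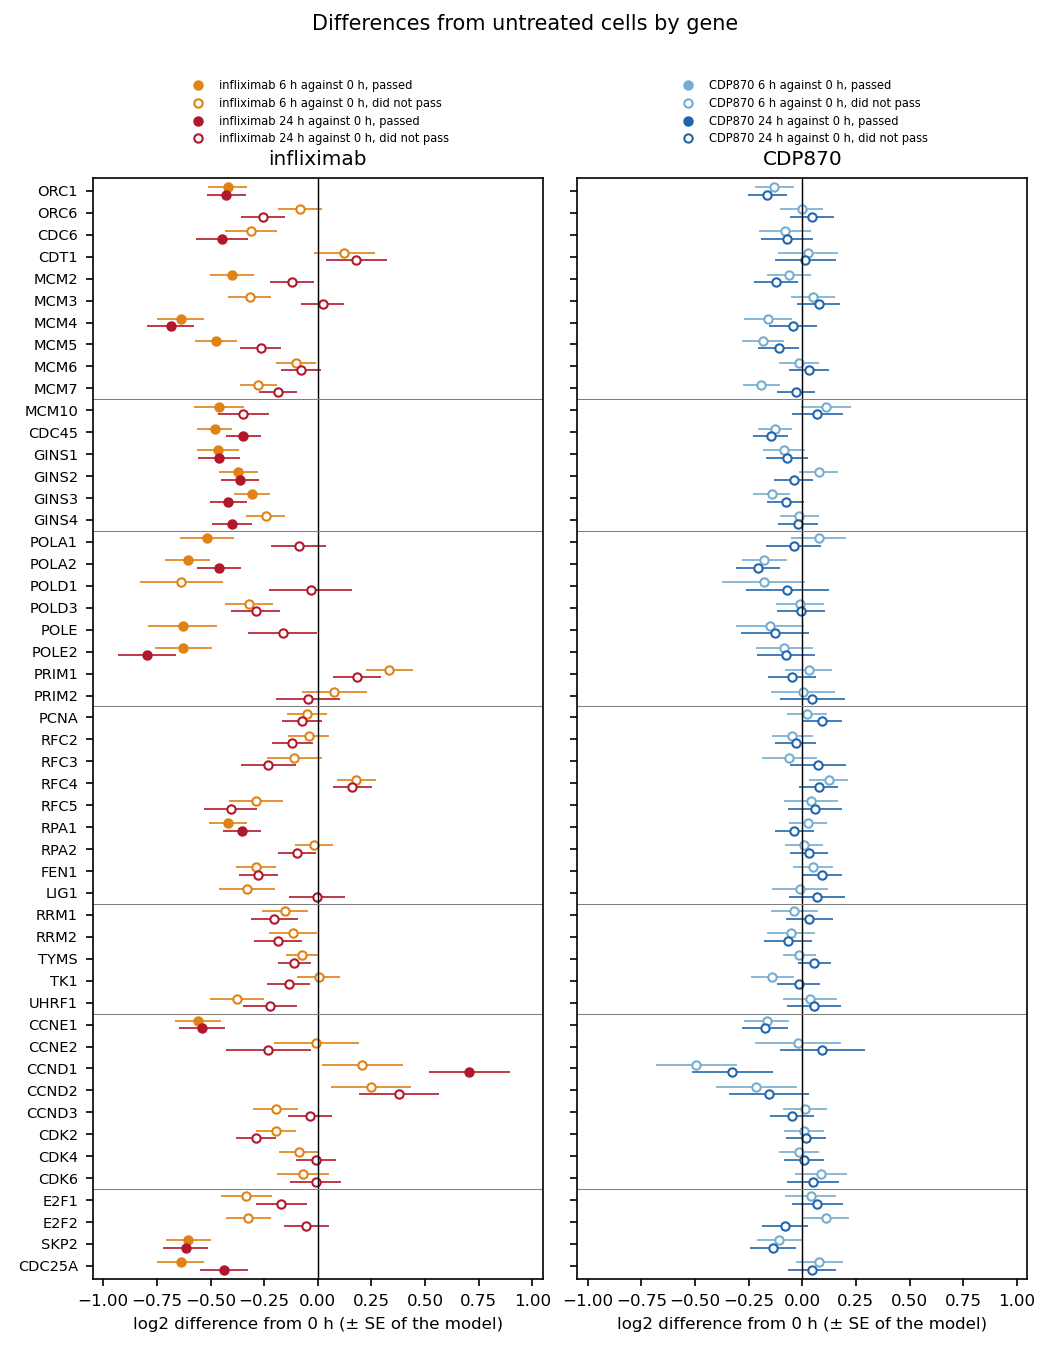
Log2 difference from untreated cells with its standard error for each gene, for infliximab (left) and CDP870 (right) at 6 h and 24 h; filled points passed at an adjusted p under 0.05 in limma's test and open points did not. Filled points lie left of 0 for 17 genes at 6 h and 14 genes at 24 h of infliximab, right of 0 for CCND1 at 24 h, and none is filled for CDP870.

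Set against each other at equal time, infliximab cells had the lower levels. At 6 h 15 of the 50 genes were lower with infliximab than with CDP870 and 1, CCND1, was higher, where 3.98% of tested probe sets were lower and 5.1% higher (9.07% in all). At 24 h 12 were lower and CCND1 was higher, where 1.79% were lower and 4.73% higher (6.51% in all). The medians were -0.26 and -0.18 over the 50 genes, and -0.05 and 0.02 over all genes. These 2 comparisons share no array. Of the 50 genes 37 lay below 0 in both, and 9 were called lower in both, which is 60% of the 15 and 75% of the 12: CDC25A, FEN1, GINS1, GINS2, MCM10, MCM4, POLE2, RPA1 and SKP2. In the mean over both times, 6 arrays against 6, 23 genes were lower and 3 higher (CCND1, CCND2 and PRIM1), where 6.55% of probe sets were lower and 9.41% higher (16% in all). Of these, CCND2 passed the filter on dim probe sets only through untreated and infliximab arrays. The counts at single times again hung on single arrays. At 6 h the count was 7, 9 and 8 without infliximab replicates 10, 8 and 9, and 6 without either of CDP870 replicates 14 and 16. At 24 h it was 4 and 6 without infliximab replicates 5 and 6, and 3, 3 and 5 without CDP870 replicates 11, 12 and 13. With the compared arrays alone all 15 calls at 6 h and 0 of the 12 at 24 h were kept. The mean over both times gave 19 to 24 when any 1 array was left out, and 18 of its 23 calls held in each of those fits.

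**Figure D3:**
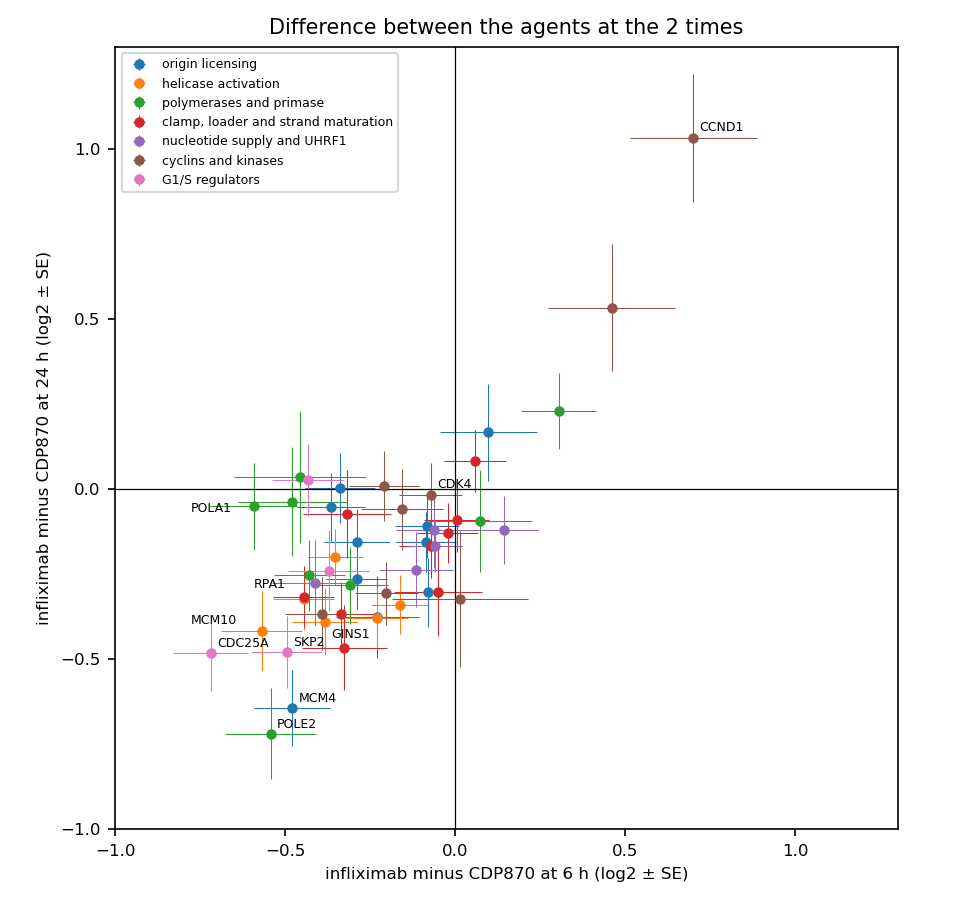
Log2 difference between infliximab and CDP870 at 6 h (horizontal) and 24 h (vertical) with standard errors, 1 point per gene coloured by role; the 2 axes share no array. Most points lie at the lower left, led by CDC25A, POLE2 and MCM4, POLA1 lies near 0 at 24 h, and CCND1 is farthest to the upper right, on the side where CCND2 and PRIM1 also lie.

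Another description, which needs no threshold, was to ask which genes had all 6 infliximab arrays below all 9 other arrays. This held for 15 of the 50 genes (30.0%) against 2.78% of tested probe sets and 3.58% of all genes: CCNE1, CDC25A, CDC45, CDK2, FEN1, GINS1, GINS2, GINS3, GINS4, MCM4, ORC1, POLA2, POLE2, RPA1 and SKP2. No member had all 6 above the other 9, which 3.99% of probe sets did.

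The DNA before the start sites was searched for short words that promoters of cell cycle genes are known for. The RefSeq promoter table (GRCh38.p14) holds the 250 bases upstream of the start for 41 of the 50 genes. A set of 4 words for E2F sites (TTTCCCGC, TTTGGCGC, TTTCGCGC or TTTGCCGC, on either strand) occurred in 16 of the 41 (39.0%) and in 3.40% of the 27305 genes of the table. The share was 40.9% of the 22 genes called lower in any of 5 infliximab comparisons and 36.8% of the 19 others, so the words did not separate the genes that fell from those that did not. CCAAT, on either strand, occurred in 56.1% of the 41 and 37.0% of all genes, and TTTGAA, a word of late cell cycle promoters, in 2.44% and 16.1%. A word is a match of letters and not a bound site. The windows below show 3 genes that fell at both times against 0 h and hold an E2F word, and MCM6, which holds the most words and did not pass in any comparison (chosen after its values were seen). Each is written 5′ to 3′ on the strand of its gene and ends at the base before the start site, with the E2F words in capitals. CDC25A lies on the minus strand at chr3:48188418-48188667, POLA2 on the plus strand at chr11:65261712-65261961, GINS2 on the minus strand at chr16:85688955-85689204 and MCM6 on the minus strand at chr2:135876444-135876693.
CDC25A: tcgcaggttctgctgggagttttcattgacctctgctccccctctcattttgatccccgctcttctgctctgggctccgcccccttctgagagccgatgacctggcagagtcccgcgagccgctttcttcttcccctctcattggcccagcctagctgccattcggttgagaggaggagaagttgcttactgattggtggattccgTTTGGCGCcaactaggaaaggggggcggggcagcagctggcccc
POLA2: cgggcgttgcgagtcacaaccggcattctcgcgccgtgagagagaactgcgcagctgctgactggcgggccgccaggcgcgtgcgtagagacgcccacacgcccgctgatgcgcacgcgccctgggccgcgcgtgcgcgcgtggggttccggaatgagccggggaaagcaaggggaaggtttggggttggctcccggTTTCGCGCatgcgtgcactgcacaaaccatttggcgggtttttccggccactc
GINS2: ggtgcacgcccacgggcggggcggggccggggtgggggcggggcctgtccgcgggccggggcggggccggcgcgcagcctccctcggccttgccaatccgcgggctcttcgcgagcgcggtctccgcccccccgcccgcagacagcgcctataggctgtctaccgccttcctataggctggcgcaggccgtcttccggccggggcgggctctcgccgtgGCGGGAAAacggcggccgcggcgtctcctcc
MCM6: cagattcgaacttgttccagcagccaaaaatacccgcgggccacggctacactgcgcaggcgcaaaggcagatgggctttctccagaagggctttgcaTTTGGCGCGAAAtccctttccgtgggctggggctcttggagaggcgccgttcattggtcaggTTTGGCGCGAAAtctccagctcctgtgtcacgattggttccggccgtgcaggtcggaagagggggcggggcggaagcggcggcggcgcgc
The word begins 44 bases before the start in CDC25A and 53 bases before it in POLA2, and in GINS2 it stands on the opposite strand. In MCM6 each of the 2 capital runs holds 2 overlapping words, TTTGGCGC on the strand shown and TTTCGCGC on the other, so the window counts 4 words. POLE2 and CCNE1, which fell with infliximab, hold none of these words in their windows, which says only that these letters are not there.

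Among the licensing genes, MCM4 and ORC1 were lower at both times, and the MCM subunits did not move together. MCM4, a subunit of the helicase, read 8.66, 8.57 and 8.77 on untreated replicates 2, 3 and 4. With infliximab it read 7.98, 8.12 and 7.98 at 6 h (replicates 8, 9 and 10) and 8.19, 7.70 and 8.05 at 24 h (replicates 5, 6 and 7), and with CDP870 8.54, 8.47 and 8.51 at 6 h and 8.66, 8.59 and 8.62 at 24 h. Every infliximab array lay below every other array, and the spread was widest at 24 h of infliximab. MCM4 was 1.56 times lower than at 0 h after 6 h (log2 -0.64 ± 0.11 SE, n = 3 and 3, adjusted p = 0.00321) and 1.61 times lower after 24 h (-0.69 ± 0.11, adjusted p = 0.00217). Against CDP870 the differences were -0.48 at 6 h (adjusted p = 0.0153) and -0.64 at 24 h (adjusted p = 0.003). The other tested probe sets of MCM4 did not all behave alike. At 6 h a pair of them was also lower than at 0 h (-0.32 and -0.73), and the remaining pair read 0.21 and -0.06. One of these read 3.67 on infliximab 24 h replicate 6 against 5.82 and 6.28 on the other arrays of that group. Means at 24 h of infliximab were 8.07 and 6.74 for the first pair, against 8.34 and 6.88 untreated. For the remaining pair they were 5.26 and 3.88, against 6.04 and 3.79. The probe set at -0.73 read 7.17, 6.79 and 6.25 on infliximab 24 h replicates 5, 6 and 7, and 6.78 to 7.07 untreated.

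ORC1, the largest subunit of the origin recognition complex, read 6.72 to 6.75 untreated, 6.17 to 6.48 on the 6 infliximab arrays and 6.52 to 6.67 on the 6 CDP870 arrays. Its groups did not overlap, and the differences from 0 h were -0.42 at 6 h and -0.43 at 24 h (± 0.09 SE, adjusted p = 0.0111 and 0.0114). CDC6, the loading factor, was lower only in the 24 h comparison with 0 h (-0.45 ± 0.12, adjusted p = 0.0409) and in the mean over both times against CDP870 (-0.30, adjusted p = 0.0262). Its value on infliximab 24 h replicate 7 was 7.48, against 7.05 and 7.06 on replicates 5 and 6, and 11 of the 15 single arrays could each undo the 24 h call. The test between 24 h and 6 h of infliximab found no difference for CDC6 (-0.14, adjusted p = 0.695).

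MCM5 and MCM2, which are also helicase subunits, were lower at 6 h against 0 h (-0.47 ± 0.10, adjusted p = 0.00874, and -0.40 ± 0.10, adjusted p = 0.0269). At 24 h they read -0.27 (adjusted p = 0.125) and -0.12 (adjusted p = 0.548). MCM3 passed as lower only against CDP870 at 6 h (-0.37, adjusted p = 0.0347). MCM6 and MCM7 passed in none of these comparisons. MCM6 read 9.63, 9.73 and 9.85 untreated, 9.71, 9.70 and 9.50 at 6 h and 9.53, 9.76 and 9.69 at 24 h of infliximab. Those groups overlap, and its differences from 0 h were -0.10 and -0.08 with a standard error of 0.09. CDT1 and ORC6, both part of licensing, did not pass either, and CDT1 was the one licensing gene above 0 at 6 h (0.12). A second tested probe set of CDT1, of lower mean, read 6.19, 6.30 and 6.22 on untreated replicates 2, 3 and 4 and 7.40, 6.70 and 6.67 on infliximab 24 h replicates 5, 6 and 7, with no overlap. It was higher at 24 h than at 0 h (0.69 ± 0.16, adjusted p = 0.0225) and than with CDP870 (0.74, adjusted p = 0.014), whereas the probe set that stands for the gene read 0.18 and 0.17 without passing. In all, 4 of the 10 licensing genes fell at 6 h and 3 at 24 h against 0 h.

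The genes of helicase activation moved most alike. Of 6 genes 5 fell at 6 h and 5 at 24 h against 0 h. All 6 were lower with infliximab than with CDP870 in the mean over both times. Against 0 h their median was -0.42 at 6 h and -0.38 at 24 h. Medians of the polymerase and primase genes were -0.56 and -0.13, and those of the G1/S regulators -0.47 and -0.30. CDC45, which binds MCM to form the active helicase, read 7.10, 7.09 and 7.08 untreated. It read 6.56, 6.69 and 6.58 at 6 h and 6.74, 6.79 and 6.70 at 24 h of infliximab, and between 6.87 and 7.06 on the CDP870 arrays. No infliximab array reached the lowest of the others. The difference from 0 h was -0.48 ± 0.08 (1.39 times lower, adjusted p = 0.00269) at 6 h and -0.35 ± 0.08 (adjusted p = 0.0199) at 24 h. Against CDP870 CDC45 passed at 6 h (-0.35, adjusted p = 0.0146) and not at 24 h (-0.20, adjusted p = 0.175).

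The 4 GINS genes encode the ring that joins CDC45 to MCM. GINS1 read 8.15, 7.93 and 8.15 untreated, 7.56, 7.67 and 7.60 at 6 h and 7.47, 7.71 and 7.67 at 24 h of infliximab, and 7.88 to 8.09 with CDP870. GINS2 read 7.48, 7.35 and 7.29 untreated, 7.05, 6.98 and 6.98 at 6 h and 7.09, 6.93 and 7.01 at 24 h of infliximab, and 7.24 to 7.50 with CDP870. For all 4 genes every infliximab array lay below every other array. GINS1 was -0.47 and -0.46 from 0 h (± 0.10, adjusted p = 0.01 and 0.012), and GINS2 -0.37 and -0.36 (± 0.09, adjusted p = 0.021 and 0.0263). Both passed against CDP870 at both times (GINS1 -0.38 and -0.39, GINS2 -0.45 and -0.32), although 13 of the 15 single arrays could each undo the 24 h call of GINS2. GINS3 was lower at both times against 0 h (-0.31 and -0.42), although 10 of the 15 single arrays could each undo its 6 h call. GINS4 was lower at 24 h (-0.40 ± 0.09, adjusted p = 0.0175) with -0.24 at 6 h (adjusted p = 0.12). MCM10, which activates the assembled helicase, was lower than with CDP870 by -0.57 at 6 h (adjusted p = 0.00842) and -0.42 at 24 h (adjusted p = 0.0493), and lower than at 0 h at 6 h (-0.46, adjusted p = 0.0269) but not at 24 h (-0.35, adjusted p = 0.1). Its 24 h call against CDP870 could be undone by each of 12 of the 15 single arrays. MCM10 read 7.47, 7.14 and 7.54 untreated, 6.85 to 7.14 on the infliximab arrays and 7.30 to 7.58 with CDP870.

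**Figure D4:**
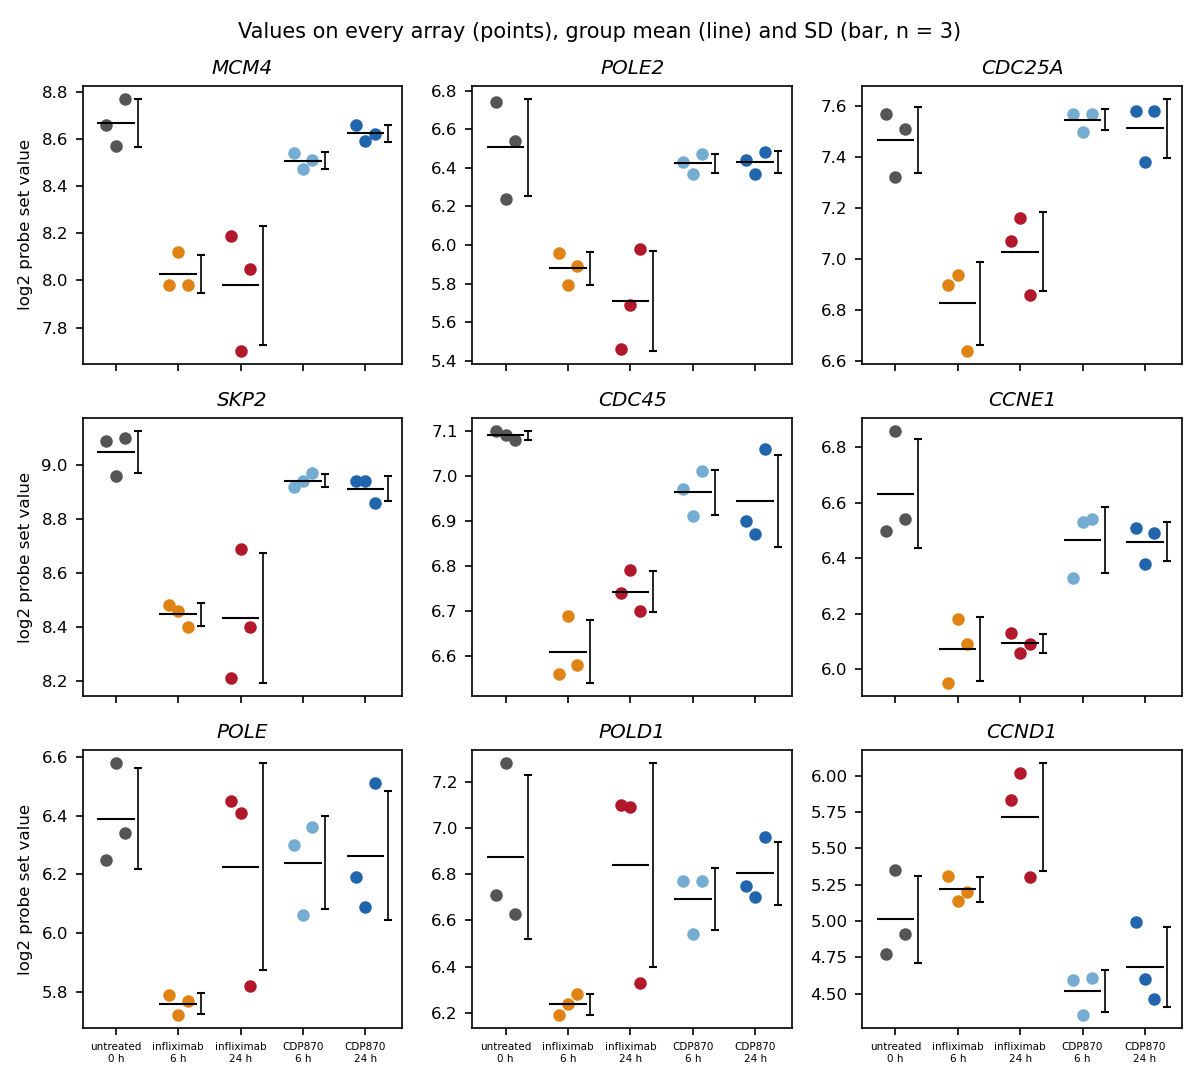
Log2 probe set values of 9 genes on every array (points), with the mean (line) and SD (bar) of each group of 3 arrays. The infliximab arrays of MCM4, POLE2, CDC25A, SKP2, CDC45 and CCNE1 lie below all others, POLE and POLD1 split within the 24 h infliximab group, and CCND1 is highest on infliximab 24 h replicates 5 and 6.

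Polymerase genes held the largest fall against 0 h and the clearest split between arrays. POLE2, the second subunit of polymerase epsilon, read 6.74, 6.24 and 6.54 untreated and 5.96, 5.79 and 5.89 at 6 h of infliximab. It read 5.46, 5.69 and 5.98 at 24 h of infliximab and between 6.37 and 6.48 on the 6 CDP870 arrays. The infliximab arrays lay below all others. POLE2 was 1.54 times lower than at 0 h after 6 h (-0.63 ± 0.13, adjusted p = 0.011) and 1.74 times lower after 24 h (-0.80 ± 0.13, adjusted p = 0.00273), and -0.54 and -0.72 against CDP870 (adjusted p = 0.0209 and 0.00477). POLA2, the second subunit of polymerase alpha, read 6.47, 6.74 and 6.43 untreated and 5.83 to 6.16 on the infliximab arrays. It was lower at 6 h (-0.61 ± 0.10, adjusted p = 0.00297) and at 24 h (-0.46 ± 0.10, adjusted p = 0.0165) than at 0 h.

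The catalytic subunits of the 3 polymerases, POLA1, POLD1 and POLE, were low at 6 h, and POLD1 and POLE divided at 24 h. POLE, of polymerase epsilon, read 6.25, 6.58 and 6.34 untreated, 5.79, 5.72 and 5.77 at 6 h of infliximab, and 6.45, 6.41 and 5.82 on infliximab 24 h replicates 5, 6 and 7. POLD1, of polymerase delta, read 6.71, 7.28 and 6.63 untreated, 6.19, 6.24 and 6.28 at 6 h, and 7.10, 7.09 and 6.33 at 24 h. For both genes infliximab 24 h replicates 5 and 6 lay with the untreated arrays and replicate 7 next to the 6 h arrays, and untreated replicate 3 was the highest array of its group. POLA1, of polymerase alpha, did not divide in this way. It read 6.26, 6.27 and 6.49 untreated and 6.14, 6.54 and 6.07 on infliximab 24 h replicates 5, 6 and 7, where only replicate 6 reached the untreated arrays. POLE was lower at 6 h (-0.63 ± 0.16, adjusted p = 0.0258), as was POLA1 (-0.52 ± 0.13, adjusted p = 0.0226), and POLD1 was -0.64 ± 0.19 without passing (adjusted p = 0.0565). At 24 h they read -0.16, -0.09 and -0.03 against 0 h, and without the 3 arrays named above -0.48, -0.31 and -0.34, none of which passed.

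The split of the infliximab 24 h arrays decides what can be said of time. Between 24 h and 6 h of infliximab 0 of the 50 genes passed (limma, 8 with an unadjusted p under 0.05, 0% of all probe sets called). Without infliximab 24 h replicate 7, 8 of the 50 genes were higher at 24 h than at 6 h, as were 6.34% of all probe sets in that fit: POLD1 (0.86), CCND1 (0.71), POLE (0.67), POLA1 (0.52), LIG1 (0.51), MCM3 (0.45), MCM2 (0.39) and E2F1 (0.33). Between 24 h and 6 h of CDP870 0 of 50 passed and 0 had an unadjusted p under 0.05. The difference between the agents was not shown to change with time for any gene (interaction, 0 of 50 passed and 4 had an unadjusted p under 0.05).

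The primase subunit PRIM1 went the other way. It read 8.21, 7.85 and 8.11 untreated, 8.33, 8.46 and 8.38 at 6 h and 8.11, 8.14 and 8.47 at 24 h of infliximab, and 7.97 to 8.10 with CDP870. It was higher than with CDP870 in the mean over both times (0.27 ± 0.08, adjusted p = 0.0315) and did not pass in any single comparison (0.33 at 6 h against 0 h, adjusted p = 0.0796). Its partner PRIM2 did not pass in any comparison. POLD3, an accessory subunit of polymerase delta, was lower in the mean over both times only.

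Of the 9 genes for the clamp, its loader and strand maturation, RPA1 was the one that fell at both times against 0 h. RPA1, the large subunit of the single-strand binder, read 8.25, 8.18 and 8.26 untreated, 7.72, 7.97 and 7.74 at 6 h and 7.75, 7.95 and 7.93 at 24 h of infliximab, and 8.15 to 8.28 with CDP870. The groups with and without infliximab did not overlap. Its differences were -0.42 and -0.35 from 0 h (± 0.09, adjusted p = 0.0109 and 0.0292) and -0.45 and -0.32 from CDP870 (adjusted p = 0.0071 and 0.0486), and 12 of the 15 single arrays could each undo the last of these. FEN1, the nuclease that trims Okazaki fragments, passed against CDP870 (-0.34 and -0.37, adjusted p = 0.0357 and 0.0291) and not against 0 h (-0.29 and -0.28, adjusted p = 0.0724 and 0.0949). It read 8.78, 8.67 and 8.79 untreated, 8.27 to 8.59 on the infliximab arrays and 8.77 to 8.88 with CDP870. RFC5, a subunit of the clamp loader, passed at 24 h against CDP870 (-0.47, adjusted p = 0.0385). Each of 11 of the 15 single arrays could undo that call. RFC5 read 6.81, 7.24 and 7.39 on infliximab 24 h replicates 5, 6 and 7 and 7.55 to 7.71 with CDP870 at 24 h. Another tested probe set of RFC5 read 5.31 to 5.58 at 6 h of infliximab. That lay above 4.46 to 4.93 untreated and 4.78 to 5.11 at 6 h of CDP870. The remaining probe set read 5.96 to 6.16 at 6 h of infliximab, below 6.22 to 6.43 untreated and 6.26 to 6.48 with CDP870. PCNA, the clamp itself, read 9.60, 9.69 and 9.48 untreated and between 9.44 and 9.60 on the 6 infliximab arrays. The groups overlap, and its differences from 0 h were -0.05 and -0.07 with a standard error of 0.09. RFC2, RFC3, RFC4, RPA2 and LIG1 did not pass in any comparison.

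Of the 5 genes of nucleotide supply, with UHRF1, most lay below 0 (medians -0.12 at 6 h and -0.19 at 24 h against 0 h). None of RRM1, RRM2, TYMS, TK1 and UHRF1 passed at either time against 0 h or CDP870. TYMS, thymidylate synthase, read 10.76, 10.79 and 10.82 untreated and 10.62 to 10.75 on the 6 infliximab arrays, with differences of -0.07 and -0.11 (± 0.08). The ribonucleotide reductase genes RRM1 and RRM2 lay between -0.12 and -0.20 from 0 h without passing. UHRF1, which brings the maintenance methyltransferase to replicated DNA, was lower than with CDP870 in the mean over both times (-0.35 ± 0.09, adjusted p = 0.0163).

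Cyclins and kinases did not move as one group. CCNE1, cyclin E1, read 6.50, 6.86 and 6.54 untreated and 5.95, 6.18 and 6.09 at 6 h of infliximab. It read 6.13, 6.06 and 6.09 at 24 h of infliximab and 6.33 to 6.54 with CDP870. Every infliximab array was below every other array. It was 1.47 times lower at 6 h (-0.56 ± 0.11, adjusted p = 0.00579) and 1.45 times lower at 24 h (-0.54 ± 0.11, adjusted p = 0.00782) than at 0 h, and -0.39 and -0.37 from CDP870, where it passed at 6 h (adjusted p = 0.0331) and not at 24 h (adjusted p = 0.0552). CCNE2, its close relative, did not pass. CDK2, the partner of cyclin E, was lower in the mean over both times against CDP870 (-0.26 ± 0.07, adjusted p = 0.0161). CDK4, CDK6 and CCND3 did not pass, and CDK4 was within 0.09 of 0 in every comparison of infliximab with 0 h or CDP870 at a single time (SE 0.09). CDK4 read 9.57, 9.80 and 9.53 untreated, 9.49 to 9.77 on the infliximab arrays and 9.61 to 9.68 with CDP870.

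CCND1, cyclin D1, was higher with infliximab. It read 4.77, 5.35 and 4.91 untreated, 5.31, 5.14 and 5.20 at 6 h of infliximab, and 5.83, 6.02 and 5.30 on infliximab 24 h replicates 5, 6 and 7. With CDP870 it read 4.59, 4.35 and 4.61 at 6 h and 4.99, 4.60 and 4.46 at 24 h. The untreated and infliximab groups overlap through untreated replicate 3, while the infliximab and CDP870 groups do not overlap at either time. CCND1 was 2.05 times higher with infliximab than with CDP870 at 24 h (1.03 ± 0.19, adjusted p = 0.00415) and 1.62 times higher at 6 h (0.70 ± 0.19, adjusted p = 0.0317). Against 0 h it was 1.63 times higher at 24 h (0.71 ± 0.19, adjusted p = 0.0375) and 0.21 above it at 6 h (adjusted p = 0.551). The 24 h call against 0 h was lost in 13 of 26 alternative fits, among them those without untreated replicate 2 (0.59) or infliximab 24 h replicate 6 (0.56). With CDP870 it read -0.49 at 6 h and -0.33 at 24 h against 0 h without passing. Its second tested probe set passed against CDP870 at both times (0.59 and 0.44) and not against 0 h at 24 h (0.21, adjusted p = 0.315). CCND2, cyclin D2, had low values (2.22 to 3.13) and was higher than with CDP870 in the mean over both times only (0.50 ± 0.13, adjusted p = 0.0188). It passed the filter on dim probe sets only through untreated replicate 4 (3.13) and infliximab 24 h replicates 5 and 6 (3.06 each). Its entry to the test thus drew on a group where it was high, and the call is given as a description only. The other probe sets of CCND2 did not pass the filter.

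Among the G1/S regulators, CDC25A and SKP2 were lower in all 4 comparisons of infliximab with 0 h or CDP870. CDC25A is the phosphatase that activates CDK2. It read 7.57, 7.32 and 7.51 untreated and 6.90, 6.94 and 6.64 at 6 h of infliximab. At 24 h of infliximab it read 7.07, 7.16 and 6.86, and it lay between 7.38 and 7.58 with CDP870. All infliximab arrays were below all others on this probe set. The other tested probe sets of CDC25A overlapped, with infliximab arrays up to 5.04 and 5.23 against 4.84 on untreated replicate 3 for both. Their means were 5.14 and 5.12 untreated and 4.88 and 4.83 at 6 h of infliximab. On the first probe set CDC25A was 1.56 times lower than at 0 h after 6 h (-0.64 ± 0.11, adjusted p = 0.00318) and 1.35 times lower after 24 h (-0.44 ± 0.11, adjusted p = 0.0293). Against CDP870 it was 1.65 times lower at 6 h (-0.72, adjusted p = 0.00122) and 1.40 times lower at 24 h (-0.48, adjusted p = 0.0171). The mean over both times gave its smallest adjusted p (-0.60 ± 0.08, adjusted p = 0.000119).

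SKP2, the ubiquitin ligase subunit that marks the CDK inhibitor p27 for degradation, read 9.09, 8.96 and 9.10 untreated. It read 8.48, 8.46 and 8.40 at 6 h and 8.21, 8.69 and 8.40 at 24 h of infliximab, and 8.86 to 8.97 with CDP870. These groups did not overlap either. It was -0.60 and -0.62 from 0 h (± 0.11, adjusted p = 0.00329 and 0.003) and -0.50 and -0.48 from CDP870 (adjusted p = 0.00951 and 0.0132). The other 2 probe sets of SKP2 read 0.08 and -0.18 from 0 h at 6 h without passing, 1 of them passed as lower against CDP870 at 24 h (-0.95, adjusted p = 0.0327), and both had their lowest value, 3.83 and 4.81, on infliximab 24 h replicate 6. E2F1, a transcription factor of the G1/S programme, was lower in the mean over both times against CDP870 (-0.31 ± 0.08, adjusted p = 0.0224) and not at single times. It read 6.80, 6.65 and 6.78 untreated, 6.39 to 6.44 at 6 h of infliximab and 6.70 to 6.89 with CDP870. On infliximab 24 h replicates 5, 6 and 7 it read 6.70, 6.78 and 6.24. E2F2 was lower than with CDP870 at 6 h (-0.43 ± 0.11, adjusted p = 0.0198) and 0.03 above it at 24 h (adjusted p = 0.928). CDC25A, GINS1, GINS2, MCM4, POLE2, RPA1 and SKP2 were the 7 genes lower in all 4 comparisons. No call was made in any of 5 comparisons for 20 of the 50 genes.

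Other probe sets of the same genes gave a partial check. At 6 h against 0 h 9 of the 17 called genes have further tested probe sets, 17 in all, of which 14 had the same sign and 3 also passed. At 24 h 10 of the 15 genes called in either direction have 17 further ones, of which 15 had the same sign and 1 passed. With the probe sets of each gene averaged, 12 of the 17 lower calls at 6 h and 10 of the 14 at 24 h were kept against 0 h. Against CDP870 9 of 15 at 6 h and 8 of 12 at 24 h were kept.

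Genes around the 50 were read from 3 further lists, to be set against 5.70% of all genes lower and 4.52% higher at 6 h, and 3.45% lower and 4.75% higher at 24 h. Of 24 other replication factors 6 fell at 6 h and 3 at 24 h against 0 h, and none rose, with medians of -0.22 and -0.17. GMNN, which encodes geminin, the inhibitor of CDT1, was lower at both times (-0.52 ± 0.10, adjusted p = 0.00429, and -0.58 ± 0.10, adjusted p = 0.00254). TIMELESS and TICRR were lower at 6 h (-0.54 and -0.61) and not at 24 h (-0.02 and -0.20). Of 19 other G1/S and E2F genes 2 fell at 6 h, DNMT1 and MYBL2, and 1 rose at 24 h, MYC (0.29 ± 0.08, adjusted p = 0.0489). RB1 did not pass. Of 7 tested CDK inhibitors 1 rose and 1 fell at each time. CDKN1B, which encodes p27, read 7.29, 6.97 and 7.17 untreated, 7.85, 7.73 and 7.77 at 6 h and 7.45, 7.80 and 7.72 at 24 h of infliximab. The untreated and infliximab groups did not overlap. CDKN1B rose by 0.64 ± 0.11 (adjusted p = 0.00351) and 0.51 ± 0.11 (adjusted p = 0.0143). CDKN3, a phosphatase that acts on CDK2, fell by 0.47 and 0.50 (adjusted p = 0.0161 and 0.0129). CDKN1A, which encodes p21, did not pass (0.25 and 0.34, adjusted p = 0.273 and 0.148).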

How the data were processed

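The deposited values are log2 probe set summaries of 15 arrays, 1 value per probe set and array. GCOS 1.3.0 and GCRMA are named in the submitters' processing notes, with no role or order, and the normalization between arrays is not given in the sources used here. Samples were grouped by their treatment and time labels. The 62 control probe sets were set aside, and testing required a value above the median (50th percentile) of the array's other probe sets on 3 or more arrays. Of 41091 probe sets with 1 gene symbol 41037 were matched by Entrez number. All 5 groups were fitted together in limma 3.58.1 (R 4.3.3) with empirical Bayes moderation, and p-values were adjusted by Benjamini-Hochberg over all tested probe sets of a comparison, with a threshold of 0.05. The script was tested on simulated data. Each gene is shown by its tested probe set of highest mean. Genes named in full were the 12 with the smallest p, always CCNE1, E2F1, PCNA, CDK4 and CCND1, and CDKN1A, CDKN1B, RB1 and MYC from the other lists; further members are given by role. The members and lists were chosen with earlier results of these data known. Alternatives covered normalization, filter, probe set choice, spread, a spike-in covariate and each array left out. Promoter sequences are from RefSeq (GRCh38.p14). Plots were made in Python 3.11.15 with matplotlib 3.10.9.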

Additional observations from a re-analysis of the deposited data

Results flagged for a closer look

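For 5 genes every infliximab array lay on one side of the untreated mean and every CDP870 array of the same time on the other, and the difference between the changes passed limma's test. The untreated mean cancels in that difference, so it is the comparison of the agents at equal time given above and not a second test. For FEN1, the Okazaki fragment nuclease, the infliximab change minus the CDP870 change was -0.34 at 6 h (adjusted p = 0.0357) and -0.37 at 24 h (adjusted p = 0.0291). It was -0.72 for CDC25A (adjusted p = 0.00122), -0.45 for RPA1 (adjusted p = 0.0071) and -0.45 for GINS2 (adjusted p = 0.0073), all at 6 h. For CCND1 it was 0.70 at 6 h (adjusted p = 0.0317) and 1.03 at 24 h (adjusted p = 0.00415), with the opposite sign to the others. The CDP870 changes of these genes did not pass on their own.

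TK1, thymidine kinase, was above CDP870 with infliximab at 6 h (0.14) and below it at 24 h (-0.12), so that the difference between the agents moved by -0.26. The interaction test did not pass for it (adjusted p = 0.59).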

How the results depend on the processing

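Every gene called lower kept its sign in each of the 26 alternatives that gave it a value, while the number of members called moved, as did the share of all probe sets called lower, given in brackets. At 6 h against 0 h the total was 17 (4.4%). It was 9 (3.54%) without probe sets that may cross-hybridise (_x_at or _s_at names), 28 (8.97%) with array weights, 0 (0.138%) with the spike-in covariate and 10 to 21 with 1 array left out. At 24 h it was 14 (2.79%), with 8 (2.07%) without those probe sets, 0 (0.0658%) with the compared arrays alone, 5 (1.6%) without the 3 arrays picked earlier and 7 to 15 with 1 array left out. Against CDP870 at 6 h it was 15 (3.98%), with 9 (3.42%) without those probe sets, 26 (11.5%) with array weights, 24 (8.74%) with the compared arrays alone, 5 (0.879%) with the covariate, 25 (10.2%) without the 3 arrays and 6 to 19 with 1 array left out. Against CDP870 at 24 h it was 12 (1.79%), with 5 (0.59%) without a filter on dim probe sets, 6 (1.25%) without those probe sets, 0 (0.114%) with the compared arrays alone, 6 (1.31%) with the covariate, 5 (1.93%) without the 3 arrays and 3 to 13 with 1 array left out. In the mean over both times it was 23 (6.55%), with 15 (5.75%) without those probe sets. Between 24 h and 6 h of infliximab, 0 to 8 members were called in either direction with 1 array left out. The cause was not tested. No paired analysis was possible because replicate numbers run on between the groups and no number occurs in more than 1 group. With 3 arrays a group, their number limits the precision.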
